A study of Mus musculus with 12 samples.

Results

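The genes described here are 53 components of the mTOR, PI3K and nutrient sensing pathway, taken from a list of names grouped by role (complex subunits, upstream inhibitors, Rag GTPases and Ragulator, PI3K and Akt kinases with their brakes, and effectors). A component entered when a transcript cluster of the array carried its symbol and no other, and where it had more than 1 such cluster, that of highest mean stood for the gene. By this rule 51 of the 53 were measured, among 22180 genes in all. The S6 kinase gene Rps6kb1 and the ribosomal S6 kinase gene Rps6ka1 were not analysed here.

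The cells were central regulatory T (cTreg) cells of mice that carry a Foxp3-YFP transgene on the C57BL/6 background, sorted from spleen and peripheral lymph nodes as YFP+CD4+ cells with high CD62L and low CD44. For its protein measurements with these inhibitors, the paper took cTreg cells of the same sort markers from Foxp3-Cre mice. Such mice express Cre recombinase under the Foxp3 promoter. The mice of the study were in general 4 to 6 weeks old, an age not given for these samples in particular, and the sources used here do not say whether mice were pooled for a sample. There were 4 groups of 3 arrays. Unstimulated cells (0 h, labelled as DMSO-treated) were compared with cells activated for 20 h through CD3 and CD28 with recombinant IL-2, in the presence of vehicle (DMSO), 50 nM Torin 1 or 500 nM PP242. All groups carried the YFP transgene, and no group was kept in culture for 20 h without stimulation, so activation and 20 h of culture with IL-2 cannot be told apart. Torin 1 and PP242 are structurally distinct compounds that occupy the ATP site of the mTOR kinase domain and so act on both of its complexes, and they were used at different doses.

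PI3K makes the membrane lipid PIP3, which brings the kinase Akt to the membrane to be switched on, and Akt in turn inhibits the TSC complex, the brake on the small GTPase Rheb. Rheb switches on mTOR complex 1 at the lysosome, where the Rag GTPases and their Ragulator anchor bring the complex when amino acids are plentiful, while GATOR1, the sestrins and AMPK hold it back. In T cells the pathway is engaged by the antigen receptor, CD28 and IL-2 and drives cell growth and protein synthesis, and regulatory T cells are known to need it under tight control.

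Values are log2 expression levels made by robust multichip averaging (RMA), and a difference of 1 is a doubling or halving. A change is a difference of group means with its standard error (SE) from limma over all 12 arrays. The error after ± is the SE of a change unless given as an SD. Calls were made at 0.05 on p values adjusted over all 22180 genes by Benjamini and Hochberg's procedure. Each call was also recomputed under 22 alternatives, namely other scalings, filters and fits, and the removal of each of the 12 arrays in turn. Where a call is said below to be lost without certain arrays, other scalings or fits could end it too. The range of adjusted p given there covers all 22 alternatives. Members not called could likewise pass under alternatives that are not named. An array is named below by its group and replicate number. The values carry no detection calls, so the level under which 90% of 1394 olfactory and vomeronasal receptor genes lay, 4.57, served as a dim level. By this measure 48 of the 51 members were above it in all 4 groups. Grb10 was below it in all of them, Fnip2 was above it in the DMSO group and below it in the other groups, and Rragb was below it in unstimulated cells.

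The arrays had medians from 4.95 to 5.08. All 10 of the measured Treg and CD4+ T cell markers (of 12 listed) were above the dim level in every group, with Foxp3 at 11.96 ± 0.021 (SD, n = 3) in unstimulated cells, 11.35 ± 0.07 with DMSO, 11.64 ± 0.051 with Torin 1 and 11.65 ± 0.067 with PP242. Of these 10 markers, 5 were called higher on activation and 2 lower, beside 11.8% and 12.1% of all genes. Their changes ran from -0.61 (Foxp3) to 0.96 (Cd5). The B cell, CD8+ T and NK cell and erythroid marker lists had array means from 4.42 to 4.94, near the dim level, and the myeloid list from 5.27 to 5.61. Single markers in them were far above the dim level, and those named here were chosen after their values were seen. Cd8b1 was at 8.08 ± 0.18 (SD, n = 3) in unstimulated cells, 7.68 ± 0.14 with DMSO, 7.40 ± 0.21 with Torin 1 and 7.42 ± 0.23 with PP242. Its partner Cd8a moved the other way on activation, from a mean of 4.13 in unstimulated cells to 4.73 with DMSO. So did Prf1 of the same list, above the dim level in all 4 groups. Prf1 was at 5.89 ± 0.26 (SD, n = 3) in unstimulated cells, 6.54 ± 0.155 with DMSO, 6.41 ± 0.21 with Torin 1 and 6.37 ± 0.31 with PP242. The macrophage marker Cd68 was at 7.41 ± 0.19 (SD, n = 3) in unstimulated cells, 6.65 ± 0.24 with DMSO, 7.13 ± 0.32 with Torin 1 and 7.26 ± 0.15 with PP242, called lower on activation (-0.76 ± 0.17, adjusted p = 0.00388) and higher with PP242 than with DMSO (0.60 ± 0.17, adjusted p = 0.022). Cst3, the brightest of the myeloid list, moved the other way and was not called on activation. It was at 9.24 ± 0.14 (SD, n = 3) in unstimulated cells, 9.58 ± 0.08 with DMSO, 9.32 ± 0.10 with Torin 1 and 9.39 ± 0.31 with PP242. On activation 1 of 7 B cell, 2 of 8 CD8+ T and NK cell, 1 of 10 myeloid and 2 of 5 erythroid markers were lower, and 1 B cell and 1 CD8+ T and NK cell marker higher. Over all genes 12.1% were lower and 11.8% higher. Between the inhibitors, Eomes of the CD8+ T and NK cell list was called lower with PP242 (4.43) than with Torin 1 (5.35), by 0.92. Of 9 platelet markers, 7 were measured. Their array mean was 5.23 to 5.30 in unstimulated cells, 4.91 with DMSO, 5.11 to 5.18 with Torin 1 and 5.07 to 5.17 with PP242. Itga2b, Itgb3 and Treml1 were called lower on activation, Itga2b higher with each inhibitor than with DMSO and Itgb3 higher with PP242, while the defining markers Pf4 and Ppbp were below the dim level in all 4 groups. The part of these markers in the results on activation and on each inhibitor was not tested.

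The first comparison asks how transcripts of the pathway differ between resting and activated cTreg cells. Of the 51 members, 4 were higher after activation with DMSO, against a background of 11.8% of all genes, and 17 were lower, against a background of 12.1%. The rises were in Tbc1d7, Eif4ebp1, Fnip2 and Rheb. The falls ran through the PI3K adaptors, the brakes on Akt, the sestrins and AMPK, with Phlpp1, Irs2, Prkaa1 and Pik3ip1 falling most. The other 30 members, among them Mtor and Rptor, did not pass the threshold. As a share, 7.84% of members were higher and 33.3% lower, and the median change over the members was -0.142 against -0.035 over all genes. When each array was centred on its median, which raised the median change of all genes by 0.074, the members split into 6 higher and 13 lower, beside 14.2% higher and 8.4% lower over all genes. In bulk RNA, fewer cells that express a gene and less RNA of it per cell cannot be told apart.

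**Figure D1:**
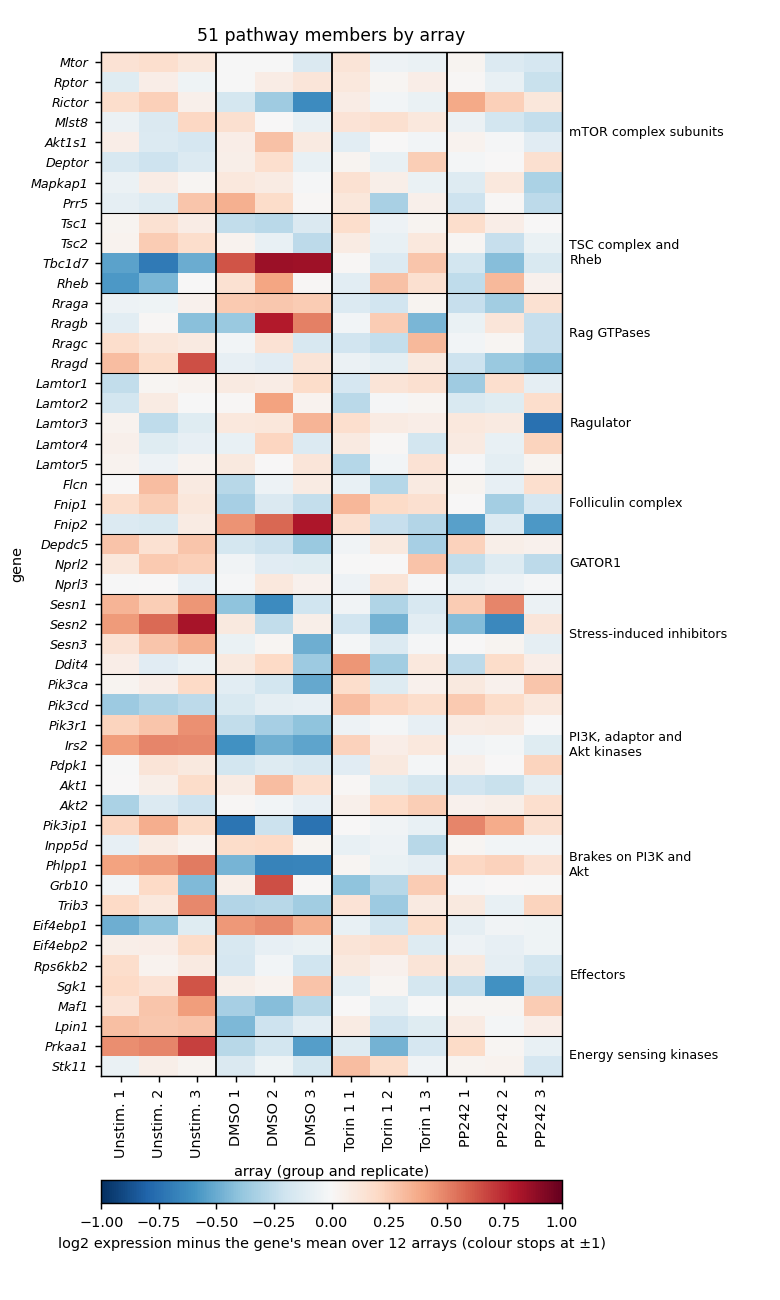
Expression of the 51 measured members (rows, grouped by role) on each of the 12 arrays (columns), as the log2 level minus the mean of the gene over the arrays, with red above and blue below that mean. The 3 DMSO arrays are the highest for Tbc1d7 and Fnip2 and the lowest for Irs2 and Phlpp1, while rows such as Mtor, Nprl3 and Lamtor5 stay pale throughout.

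Of the 8 subunits of the mTOR complexes, Rictor was the 1 called on activation. The kinase gene Mtor was at 8.67, 8.69 and 8.64 in unstimulated cells, 8.52, 8.52 and 8.38 with DMSO, 8.65, 8.47 and 8.46 with Torin 1 and 8.56, 8.39 and 8.36 with PP242. All 3 DMSO arrays lay below the 3 unstimulated ones, yet the change of -0.19 ± 0.10 (adjusted p = 0.181) did not pass the threshold. Rptor, which encodes the scaffold of mTOR complex 1, was at 9.21, 9.40 and 9.29 in unstimulated cells, 9.33, 9.41 and 9.46 with DMSO, 9.44, 9.35 and 9.40 with Torin 1 and 9.34, 9.26 and 9.11 with PP242. The unstimulated and DMSO ranges overlapped, with a change on activation of 0.10 ± 0.10 (adjusted p = 0.517).

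Rictor, the scaffold that defines mTOR complex 2, was at 8.69, 8.75 and 8.56 in unstimulated cells, 8.33, 8.15 and 7.88 with DMSO, 8.58, 8.48 and 8.44 with Torin 1 and 8.89, 8.75 and 8.62 with PP242. The DMSO arrays were lower than all others, and they were also the most spread. Rictor fell by 0.54 ± 0.12 (adjusted p = 0.00459) on activation, 1.46-fold. The remaining subunits did not pass the threshold. These are Mlst8, shared by both complexes, Akt1s1 and Deptor, which inhibit the kinase, and Mapkap1 and Prr5, which belong to complex 2. Their changes lay between 0.03 (Mlst8) and 0.23 (Akt1s1). Akt1s1 rose past the threshold when the arrays were rescaled by quantiles (adjusted p = 0.0453) or centred on their medians (0.0462).

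The TSC complex and its target held the largest rise of all members. Tbc1d7, the third subunit of the complex beside Tsc1 and Tsc2, was at 4.74, 4.57 and 4.77 in unstimulated cells, 5.90, 6.13 and 6.12 with DMSO, 5.28, 5.14 and 5.55 with Torin 1 and 5.09, 4.85 and 5.12 with PP242. The 3 groups of activated arrays all lay above the unstimulated arrays, and the DMSO arrays were above both inhibitor groups without overlap. Tbc1d7 rose by 1.36 ± 0.13 (adjusted p = 3.49e-06) on activation, 2.56-fold. Rheb was at 7.25, 7.37 and 7.83 in unstimulated cells, 7.97, 8.22 and 7.84 with DMSO, 7.71, 8.12 and 7.98 with Torin 1 and 7.57, 8.15 and 7.86 with PP242. Unstimulated array 3 almost reached the DMSO arrays, the other unstimulated arrays were clearly lower, and the 3 activated groups overlapped one another. Its rise of 0.53 ± 0.18 (adjusted p = 0.0435) was lost without unstimulated array 1 or 2, DMSO array 1 or 2, Torin 1 array 3 or PP242 array 3 (adjusted p from 0.0131 to 0.17 over the alternatives). The call was also lost when all clusters were fitted (0.0845), without the empirical Bayes step (0.116) and with array weights (0.0522).

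Of the other TSC subunits, Tsc1 was called lower and Tsc2 did not pass the threshold. Tsc1, the stabilising subunit, was at 7.47, 7.60 and 7.52 in unstimulated cells, 7.20, 7.17 and 7.30 with DMSO, 7.62, 7.39 and 7.47 with Torin 1 and 7.62, 7.51 and 7.45 with PP242. The DMSO arrays were below every other array. Tsc1 fell by 0.31 ± 0.10 (adjusted p = 0.0343), a call lost without any 1 of the 3 unstimulated arrays or DMSO array 1 or 2 (adjusted p from 0.0169 to 0.117 over the alternatives). It was also lost with centred arrays and with only the 2 groups fitted. Tsc2, the subunit that switches Rheb off, was at 8.42, 8.64 and 8.56 in unstimulated cells, 8.42, 8.31 and 8.12 with DMSO, 8.47, 8.31 and 8.49 with Torin 1 and 8.40, 8.15 and 8.32 with PP242. Its DMSO arrays reached up to the lowest unstimulated array, and the change was -0.25 ± 0.11 (adjusted p = 0.12).

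The promoter of Tbc1d7, the member with the largest rise, is shown because it holds an E-box, the CACGTG element bound by MYC, USF and TFE factors. The RefSeq window of GRCm38.p6 runs from 250 bases before to 50 after the transcript start, on the minus strand at chr13:43171452-43171751, and the capitals mark the element.
Tbc1d7 promoter: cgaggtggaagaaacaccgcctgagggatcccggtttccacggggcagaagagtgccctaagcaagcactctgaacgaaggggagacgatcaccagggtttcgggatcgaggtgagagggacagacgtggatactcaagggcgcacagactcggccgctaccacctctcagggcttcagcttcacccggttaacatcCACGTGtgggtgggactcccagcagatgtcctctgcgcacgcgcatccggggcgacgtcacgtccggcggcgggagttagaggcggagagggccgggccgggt
The E-box begins 53 bases before the start.

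Among the 4 Rag GTPases, which recruit mTOR complex 1 to the lysosome as pairs of RagA or RagB with RagC or RagD, 1 was called. Rragd was at 7.08, 6.95 and 7.41 in unstimulated cells, 6.69, 6.65 and 6.89 with DMSO, 6.71, 6.67 and 6.87 with Torin 1 and 6.56, 6.40 and 6.33 with PP242. The unstimulated arrays were the highest, and the PP242 arrays the lowest, with no overlap of those 2 groups with any other. Rragd fell by 0.40 ± 0.13 (adjusted p = 0.0338), a call lost without unstimulated array 1 or 3 or DMSO array 1 or 2 (adjusted p from 0.0196 to 0.16 over the alternatives). It was also lost with centred arrays, with all clusters fitted, without the empirical Bayes step and with only the 2 groups fitted. Rraga, Rragb and Rragc changed by 0.28, 0.48 and -0.14 and did not pass the threshold. For Rragb the DMSO arrays alone ran from 4.34 to 5.50, and without DMSO array 1 its change was 0.82 and passed (adjusted p = 0.00939). Rraga passed without PP242 array 3 (adjusted p = 0.0472).

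None of the 5 Ragulator subunits, the scaffold that anchors the Rags to the lysosome, passed the threshold. Their changes on activation lay between 0.05 (Lamtor4) and 0.30 (Lamtor3), with Lamtor1, Lamtor2 and Lamtor5 in between. Lamtor3 has another cluster on the array, which rose by 0.43 with an adjusted p of 0.0345 when all clusters were fitted.

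The folliculin complex, a GTPase-activating complex for RagC and RagD, had its partner subunits move in opposite directions. Fnip2 was at 4.48, 4.46 and 4.70 in unstimulated cells, 5.06, 5.19 and 5.43 with DMSO, 4.78, 4.38 and 4.32 with Torin 1 and 4.08, 4.48 and 4.04 with PP242. The DMSO arrays stood above all others, and the means of the other groups lay under the dim level. Its rise of 0.68 ± 0.15 (adjusted p = 0.00463) is therefore a bound of at least 1.53-fold, the brighter mean over the dim level, or over a dim array's own value where that was higher. Fnip1 was at 7.86, 7.94 and 7.80 in unstimulated cells, 7.36, 7.54 and 7.45 with DMSO, 8.02, 7.88 and 7.85 with Torin 1 and 7.69, 7.35 and 7.52 with PP242. The unstimulated arrays lay above the DMSO arrays without overlap, and Fnip1 fell by 0.42 ± 0.11 (adjusted p = 0.011). Flcn, the catalytic subunit, changed by -0.22 and did not pass the threshold.

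GATOR1 switches off RagA and RagB when amino acids are scarce. Of its subunits, Depdc5 fell by 0.49 ± 0.12 (adjusted p = 0.00718), with the unstimulated arrays between 8.16 and 8.29 and the DMSO arrays between 7.63 and 7.83. Nprl2 (-0.30, adjusted p = 0.0518) and Nprl3 (0.08) did not pass the threshold. Nprl2 passed without Torin 1 array 3 (adjusted p = 0.036), with dim genes removed (0.0326) and with trend and robust settings (0.0157). It also passed without the empirical Bayes step (0.0381) and with array weights (0.0434).

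The 3 sestrin genes, whose products restrain mTOR complex 1 upstream of GATOR1 under stress and amino acid shortage, all fell on activation. Sesn1 was at 8.45, 8.36 and 8.56 in unstimulated cells, 7.71, 7.49 and 7.92 with DMSO, 8.08, 7.81 and 7.96 with Torin 1 and 8.37, 8.60 and 8.05 with PP242. The DMSO arrays lay below the unstimulated and the PP242 arrays and overlapped the Torin 1 arrays. Sesn1 fell by 0.75 ± 0.14 (adjusted p = 0.0016), 1.68-fold. Sesn2, which encodes a leucine sensor and was chosen for its full values after they were seen, was at 6.42, 6.56 and 6.81 in unstimulated cells, 6.09, 5.75 and 6.05 with DMSO, 5.80, 5.52 and 5.88 with Torin 1 and 5.55, 5.34 and 6.12 with PP242. All activated arrays lay below the unstimulated ones. Sesn2 fell by 0.64 ± 0.18 (adjusted p = 0.0193), lost without unstimulated array 3 or DMSO array 2 (adjusted p from 0.00444 to 0.0866 over the alternatives). Sesn3 fell by 0.44 ± 0.12 (adjusted p = 0.0197), lost without unstimulated array 2 or 3 or DMSO array 3 (adjusted p from 0.00714 to 0.0805 over the alternatives), with a change of -0.28 in the absence of DMSO array 3. The Sesn2 call was also lost without the empirical Bayes step. That of Sesn3 was also lost with centred arrays and with only the 2 groups fitted. Ddit4, an inhibitor induced by low oxygen and other stress that acts through the TSC complex, changed by 0.02.

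One of the 2 promoter windows of Sesn1 is shown because it carries the FOXO motif TGTTTAC, the element of the FOXO factors that Akt keeps out of the nucleus. It lies on the plus strand at chr10:41810324-41810623.
Sesn1 promoter: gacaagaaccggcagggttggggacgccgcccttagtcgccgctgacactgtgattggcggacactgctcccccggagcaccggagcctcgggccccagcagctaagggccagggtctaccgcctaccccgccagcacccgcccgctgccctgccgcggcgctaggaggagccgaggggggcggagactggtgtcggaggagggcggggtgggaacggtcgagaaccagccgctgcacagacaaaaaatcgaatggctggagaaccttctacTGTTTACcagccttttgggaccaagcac
The motif, in capitals, begins 22 bases after the start.

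Of the 7 genes for PI3K, its adaptors and the Akt kinases, 3 fell on activation and none rose. Irs2, an adaptor that links insulin and cytokine receptors to PI3K, was at 8.65, 8.72 and 8.71 in unstimulated cells, 7.63, 7.75 and 7.71 with DMSO, 8.47, 8.30 and 8.34 with Torin 1 and 8.20, 8.22 and 8.11 with PP242. The 4 groups did not overlap, in the order unstimulated, Torin 1, PP242 and DMSO from high to low. Irs2 fell by 1.00 ± 0.09 (adjusted p = 2.93e-06), 2-fold. Pik3r1, the regulatory subunit that holds and stabilises the catalytic subunit, fell by 0.65 ± 0.10 (adjusted p = 0.000176), from 9.79 to 10.03 in unstimulated cells to 9.16 to 9.32 with DMSO. Pik3ca, a catalytic subunit found in most cell types, fell by 0.36 ± 0.12 (adjusted p = 0.0472). This call passed in 8 of the 22 alternatives (adjusted p from 0.0251 to 0.188 over the alternatives) and was lost without any 1 of the unstimulated arrays, DMSO array 2 or 3, Torin 1 array 3 or PP242 array 1 or 2.

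Pik3cd, the catalytic subunit typical of leukocytes, was chosen for its full values after they were seen. It was at 9.80, 9.86 and 9.90 in unstimulated cells, 10.01, 10.07 and 10.08 with DMSO, 10.47, 10.37 and 10.34 with Torin 1 and 10.42, 10.34 and 10.27 with PP242. The unstimulated arrays were the lowest, the DMSO arrays lay above them without overlap, and both inhibitor groups lay above DMSO and overlapped each other. Its change on activation was 0.20 ± 0.09 (adjusted p = 0.129) and did not pass the threshold. It passed with centred arrays (adjusted p = 0.0471), with trend and robust settings (0.027) and without the empirical Bayes step (0.0237). Pdpk1, the kinase that activates Akt, and the Akt genes Akt1 and Akt2 changed by -0.23, 0.11 and 0.19, also short of the threshold. Pdpk1 passed with trend and robust settings (adjusted p = 0.0488).

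The promoter window of Irs2 is shown as that of the adaptor with the largest fall. It lies on the minus strand at chr8:11008880-11009179 and holds an E-box in capitals.
Irs2 promoter: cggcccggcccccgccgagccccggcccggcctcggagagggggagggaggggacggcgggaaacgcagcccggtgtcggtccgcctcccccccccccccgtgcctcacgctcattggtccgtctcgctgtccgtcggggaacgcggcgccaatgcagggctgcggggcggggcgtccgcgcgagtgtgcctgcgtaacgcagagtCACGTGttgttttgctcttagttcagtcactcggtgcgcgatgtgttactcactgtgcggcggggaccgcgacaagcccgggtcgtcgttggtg
This E-box begins 44 bases before the start. Of the 51 members, 46 had at least 1 such window, 63 windows in all, some of which overlap. The CACGTG element, which reads alike on both strands, was in 14.3% of the member windows (9 members, namely Fnip1, Irs2, Lamtor1, Lamtor4, Rheb, Rragb, Rragc, Sgk1 and Tbc1d7) and in 7.15% of the 32851 windows of all genes. The longer CLEAR core TCACGTGA, which contains the E-box, was in none of the member windows and in 0.974% of all. The FOXO motif was in 7.94% of member windows (Akt1, Mapkap1, Sesn1 and Stk11) and 3.65% of all. The C/EBP-ATF element TGATGNAA was in 6.35% (Akt2, Lamtor4, Pik3cd and Trib3) and 3.97%, with both strands searched. The E-box genes include members that rose, fell or stayed under the threshold on activation, and a match is a description of letters, not of binding.

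Of the 5 brakes on PI3K and Akt, 3 fell on activation and the others did not pass the threshold. Phlpp1, a phosphatase that removes an activating phosphate from Akt, was at 8.60, 8.62 and 8.71 in unstimulated cells, 7.72, 7.52 and 7.53 with DMSO, 8.21, 8.12 and 8.10 with Torin 1 and 8.40, 8.42 and 8.34 with PP242. The groups were fully separate, with unstimulated highest, then PP242, Torin 1 and DMSO. Phlpp1 fell by 1.05 ± 0.09 (adjusted p = 2.61e-06), 2.07-fold and the largest fall of any member. Pik3ip1, a membrane protein that binds and inhibits the PI3K catalytic subunit, was at 7.30, 7.45 and 7.28 in unstimulated cells, 6.36, 6.87 and 6.35 with DMSO, 7.09, 7.04 and 7.01 with Torin 1 and 7.57, 7.45 and 7.25 with PP242. The DMSO arrays were the lowest, DMSO array 2 stood above the other DMSO arrays, and PP242 arrays reached the level of unstimulated cells. Pik3ip1 fell by 0.82 ± 0.14 (adjusted p = 0.000525), 1.76-fold. Trib3, a pseudokinase that binds Akt, fell by 0.57 ± 0.14 (adjusted p = 0.00895). Inpp5d, the phosphatase SHIP-1 that consumes PIP3, changed by 0.12. Grb10, an adaptor that damps insulin receptor signalling, was below the dim level throughout and has no fold.

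Among the effectors, Eif4ebp1 moved against Maf1 and Lpin1. Eif4ebp1, the repressor of cap-dependent translation that mTOR complex 1 inactivates, was at 6.72, 6.80 and 7.09 in unstimulated cells, 7.64, 7.68 and 7.57 with DMSO, 7.13, 7.03 and 7.39 with Torin 1 and 7.12, 7.17 and 7.17 with PP242. The DMSO arrays were above all others. Eif4ebp1 rose by 0.76 ± 0.12 (adjusted p = 0.000294), 1.69-fold. Maf1, a repressor of RNA polymerase III that mTOR also inactivates, fell by 0.62 ± 0.11 (adjusted p = 0.000595), from between 9.14 and 9.42 to between 8.58 and 8.72. Lpin1, a phosphatidate phosphatase kept out of the nucleus by mTOR complex 1, fell by 0.54 ± 0.11 (adjusted p = 0.00233), from between 7.25 and 7.29 to between 6.53 and 6.88. Eif4ebp2 and the S6 kinase gene Rps6kb2 changed by -0.20 and -0.23 and did not pass the threshold. Sgk1, a kinase activated by mTOR complex 2, was at 5.45, 5.39 and 5.87 in unstimulated cells, 5.30, 5.28 and 5.53 with DMSO, 5.14, 5.26 and 5.07 with Torin 1 and 5.003, 4.63 and 5.01 with PP242. Unstimulated array 3 was the highest of all, and the other unstimulated arrays overlapped the DMSO arrays. Its change was -0.20 ± 0.14 (adjusted p = 0.36).

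The energy sensing kinases gave 1 further fall. Prkaa1, the catalytic AMPK subunit that restrains mTOR complex 1 when energy is low, was at 9.84, 9.87 and 10.06 in unstimulated cells, 9.10, 9.20 and 8.83 with DMSO, 9.25, 8.91 and 9.21 with Torin 1 and 9.57, 9.40 and 9.30 with PP242. The unstimulated arrays lay above every activated array. Prkaa1 fell by 0.88 ± 0.13 (adjusted p = 0.000175), 1.84-fold. Stk11, the kinase LKB1 that activates AMPK, changed by -0.13.

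**Figure D2:**
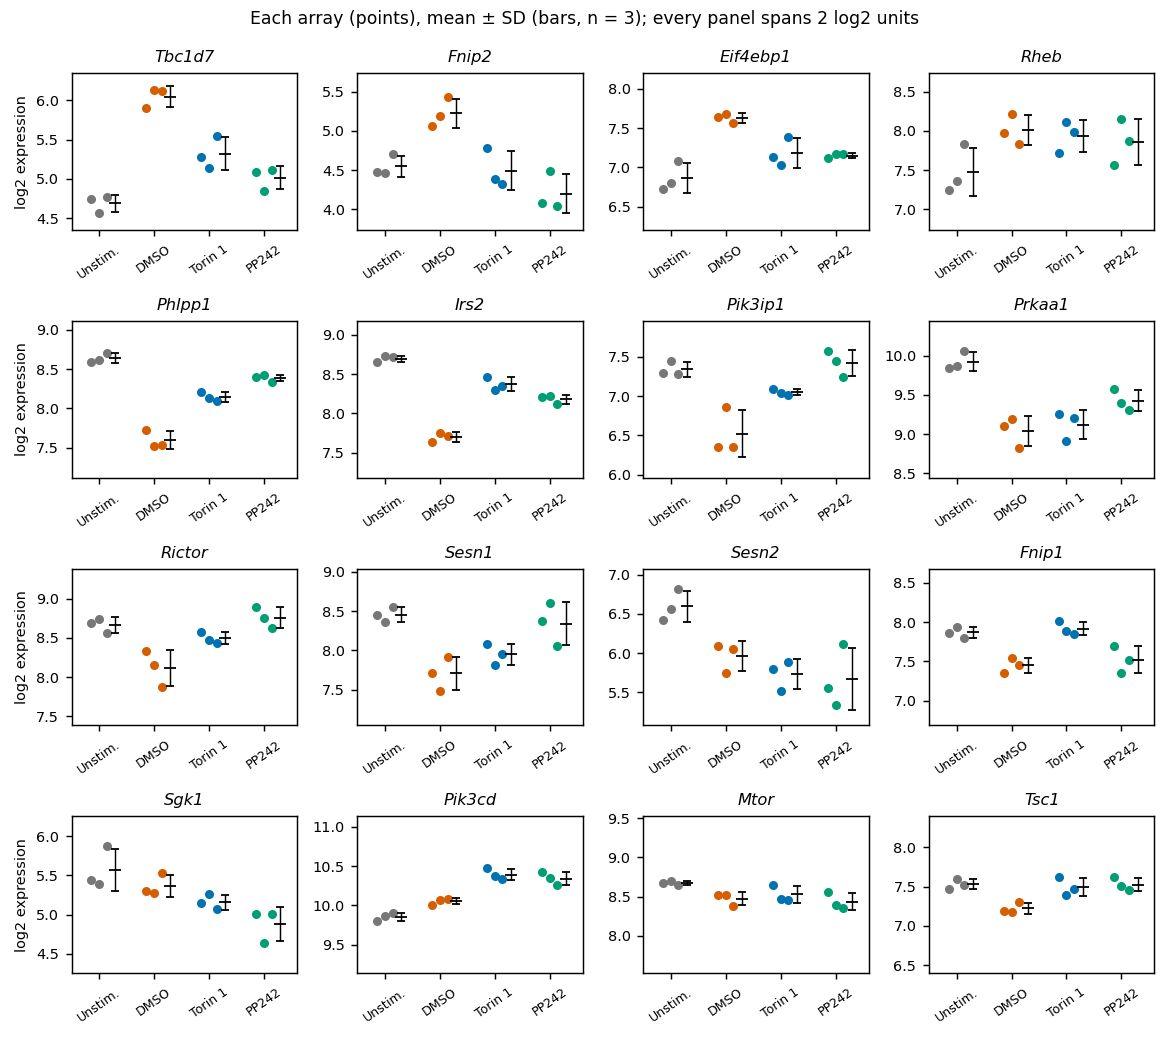
Log2 expression of 16 members on each array (points, coloured by group) with the group mean and SD (black bars, n = 3), every panel spanning 2 log2 units. Tbc1d7, Fnip2 and Eif4ebp1 peak with DMSO, Phlpp1, Irs2, Pik3ip1 and Rictor are lowest with DMSO, Sesn2 is lower in all activated groups than in unstimulated cells, and Pik3cd is highest with the inhibitors.

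The next comparisons ask which transcripts differ when mTOR kinase activity is blocked during activation. Both set an inhibitor against the same 3 DMSO arrays, and these arrays also enter the comparison with unstimulated cells, so the results that follow are not independent of one another or of those above. With Torin 1, 5 members were higher than with DMSO, against a background of 3.33% of all genes, and 3 were lower, against a background of 4.79%. The higher members were Irs2, Phlpp1, Pik3ip1, Fnip1 and Pik3cd, and the lower ones Fnip2, Tbc1d7 and Eif4ebp1. The other 43 did not pass the threshold. The count of 5 fell to 3 without DMSO array 1 or 3 or Torin 1 array 2 or 3, and to 2 without Torin 1 array 1.

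With PP242, 11 members were higher, against a background of 7.38%, and 6 were lower, against a background of 9.27%. The higher ones were Pik3ip1, Phlpp1, Rictor, Sesn1, Irs2, Maf1, Pik3ca, Pik3r1, Depdc5, Tsc1 and Pik3cd. The lower ones were Tbc1d7, Fnip2, Sgk1, Eif4ebp1, Rraga and Akt1. The count of 11 fell to 7 without unstimulated array 2, DMSO array 3 or PP242 array 1 or 2, and that of 6 fell to 3 without DMSO array 3 or PP242 array 2. With the arrays centred on their medians, 7 members were higher and 6 lower, beside 5.49% and 10.8% of all genes.

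**Figure D3:**
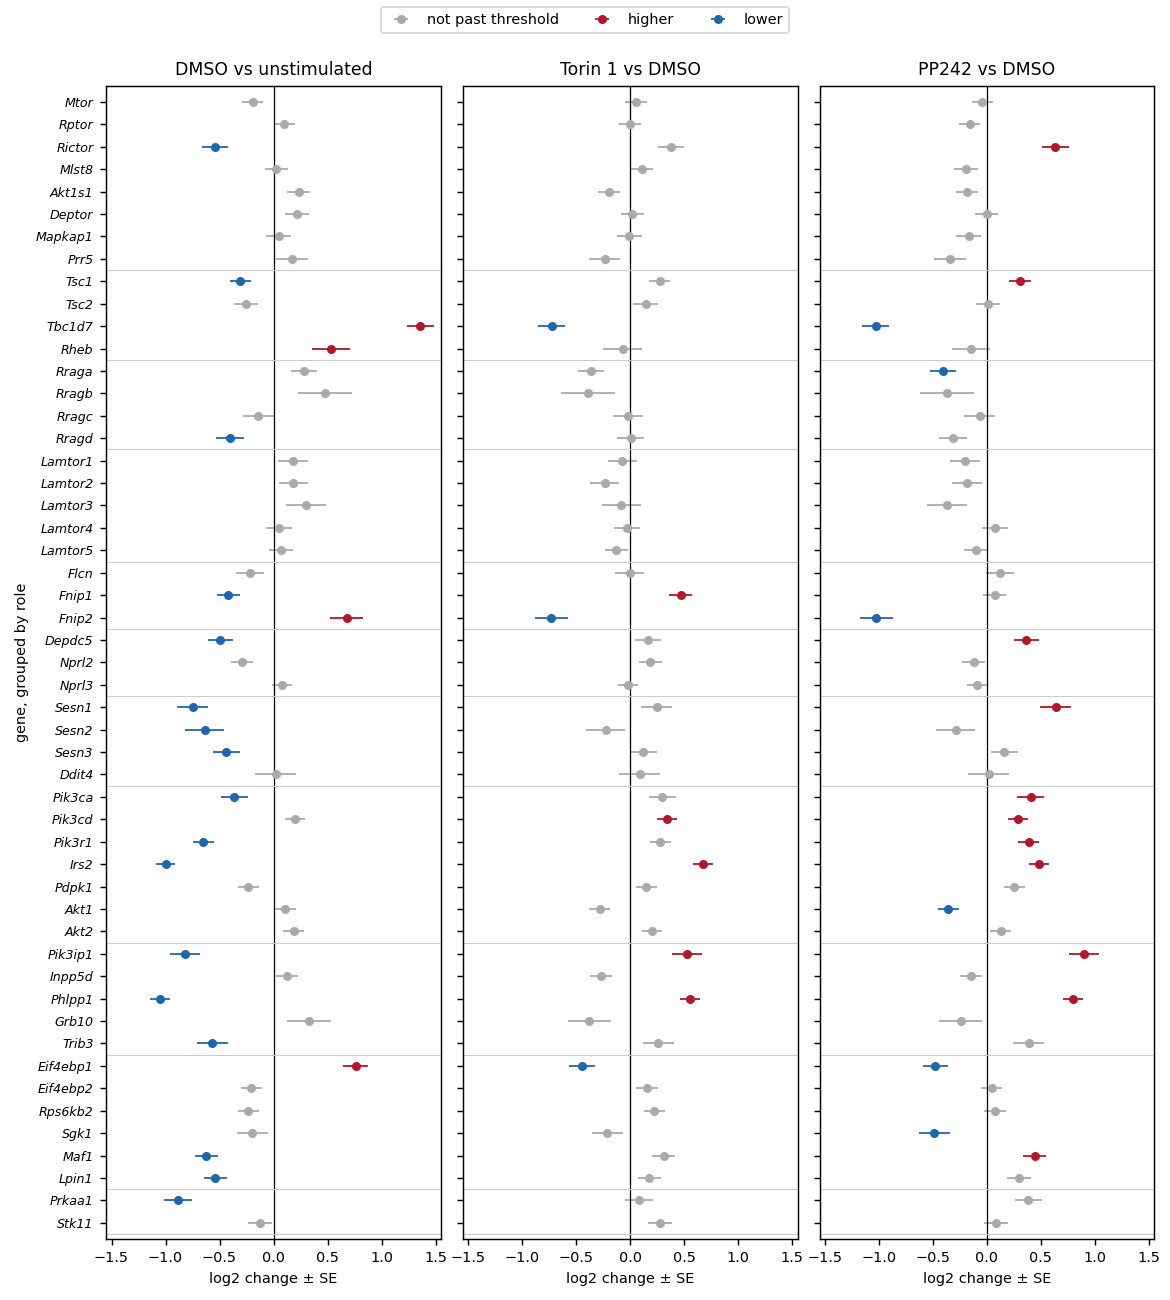
Log2 change ± SE of the 51 members, grouped by role, on activation (left) and with Torin 1 (middle) or PP242 (right) against DMSO, in red or blue at an adjusted p under 0.05 and grey otherwise. The members called are 4 higher and 17 lower on activation, 5 and 3 with Torin 1 and 11 and 6 with PP242, and all 3 panels share the DMSO arrays.

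In the mTOR complexes, Rictor was the called member. It rose by 0.63 ± 0.12 (adjusted p = 0.00248) with PP242. With Torin 1 its change of 0.38 ± 0.12 (adjusted p = 0.0757) did not pass the threshold, although the 3 Torin 1 arrays lay above the 3 DMSO arrays, and it passed without DMSO array 1 (adjusted p = 0.0385), with dim genes removed (0.049), with trend and robust settings (0.0343) and with the replicate number as a block (0.0404). Mtor changed by 0.05 ± 0.10 (adjusted p = 0.836) with Torin 1 and -0.04 ± 0.10 (adjusted p = 0.84) with PP242. Rptor changed by -0.00 and -0.16, and neither gene passed the threshold with either compound.

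In the TSC complex, Tbc1d7 fell by 0.73 ± 0.13 (adjusted p = 0.00306) with Torin 1, 1.66-fold, and by 1.03 ± 0.13 (adjusted p = 8.98e-05) with PP242, 2.04-fold. Whether the E-box in the promoter of Tbc1d7 has a part in these falls was not tested. Of the other E-box members, Irs2 rose with both compounds, Fnip1 rose with Torin 1, Sgk1 fell with PP242, and the rest were not called. Tsc1 rose by 0.31 ± 0.10 (adjusted p = 0.0463) with PP242, a call that passed in 7 of the 22 alternatives (adjusted p from 0.0234 to 0.161 over the alternatives) and was lost without any 1 of the 12 arrays other than Torin 1 arrays 1 and 2. With Torin 1 the change of Tsc1 was 0.27 ± 0.10 (adjusted p = 0.112). Tsc2 changed by 0.14 with Torin 1 and 0.01 with PP242, and Rheb by -0.07 and -0.15, all short of the threshold.

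Among the nutrient sensors at the lysosome, Rraga, the gene for RagA, fell by 0.40 ± 0.12 (adjusted p = 0.034) with PP242, from between 8.19 and 8.20 with DMSO to between 7.59 and 8.09. This call was lost without any 1 of the DMSO arrays or PP242 array 1 or 2 (adjusted p from 0.00361 to 0.145 over the alternatives). With Torin 1 its change of -0.36 ± 0.12 (adjusted p = 0.0873) passed without PP242 array 3 (adjusted p = 0.0321). Rragb, Rragc and Rragd and the 5 Ragulator genes were not called with either compound. Without DMSO array 1, however, Rragb passed with both, at -0.73 in place of -0.39 with Torin 1 (adjusted p = 0.0465) and -0.71 in place of -0.37 with PP242 (adjusted p = 0.0288). Fnip2 fell by 0.73 ± 0.15 (adjusted p = 0.0091) with Torin 1, at least 1.5-fold, and by 1.02 ± 0.15 (adjusted p = 0.000388) with PP242, at least 1.58-fold. Fnip1 rose by 0.47 ± 0.11 (adjusted p = 0.0162) with Torin 1, lost without DMSO array 1 or Torin 1 array 1 (adjusted p from 0.00805 to 0.0728 over the alternatives), and changed by 0.07 ± 0.11 (adjusted p = 0.731) with PP242. Flcn was not called. Depdc5 of GATOR1 rose by 0.36 ± 0.12 (adjusted p = 0.0498) with PP242, a call that passed in 6 of the 22 alternatives (adjusted p from 0.0276 to 0.176 over the alternatives) and was lost without any 1 of the 12 arrays other than Torin 1 arrays 2 and 3.

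Of the sestrins, Sesn1 rose by 0.63 ± 0.14 (adjusted p = 0.00751) with PP242, while its change with Torin 1 was 0.24 ± 0.14 (adjusted p = 0.384). Sesn2 changed by -0.23 with Torin 1 and -0.29 with PP242, and Sesn3 by 0.12 and 0.16. Neither of these passed the threshold, but Sesn2 with PP242 passed without PP242 array 3, at -0.51 (adjusted p = 0.0445).

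Of the PI3K and Akt genes, Irs2 rose by 0.67 ± 0.09 (adjusted p = 0.000641) with Torin 1, 1.59-fold, and by 0.48 ± 0.09 (adjusted p = 0.00223) with PP242, 1.39-fold. Pik3cd rose by 0.34 ± 0.09 (adjusted p = 0.0328) with Torin 1, lost without any 1 of the 6 arrays compared (adjusted p from 0.00188 to 0.124 over the alternatives). With PP242 it rose by 0.29 ± 0.09 (adjusted p = 0.0413), lost without unstimulated array 2 or 3, any 1 DMSO array, Torin 1 array 2 or 3 or PP242 array 1 or 2 (adjusted p from 0.00323 to 0.142 over the alternatives). Pik3r1 rose by 0.39 ± 0.10 (adjusted p = 0.0119) with PP242, and its change with Torin 1 was 0.28 ± 0.10 (adjusted p = 0.0945). The Torin 1 change passed with trend and robust settings (adjusted p = 0.0211) and without the empirical Bayes step (0.0407). Pik3ca rose by 0.41 ± 0.12 (adjusted p = 0.0382) with PP242, lost without unstimulated array 2, DMSO array 2 or 3 or any 1 PP242 array (adjusted p from 0.0178 to 0.155 over the alternatives).

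Akt1 fell by 0.36 ± 0.10 (adjusted p = 0.0239) with PP242, from between 7.43 and 7.65 with DMSO to between 7.13 and 7.25. That call was lost without DMSO array 2 or 3 or PP242 array 1 or 2 (adjusted p from 0.00974 to 0.0984 over the alternatives). With Torin 1, Akt1 changed by -0.28 ± 0.10 (adjusted p = 0.105). Akt2 and Pdpk1 were not called with either compound. Pdpk1 with PP242 passed with trend and robust settings (adjusted p = 0.0414) and without the empirical Bayes step (0.0488).

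The brakes gave the largest rises with PP242. Pik3ip1 rose by 0.90 ± 0.14 (adjusted p = 0.000451) with PP242, 1.87-fold. With Torin 1 it rose by 0.53 ± 0.14 (adjusted p = 0.0306), lost without DMSO array 1 or 3 or any 1 Torin 1 array (adjusted p from 0.00483 to 0.111 over the alternatives). The Torin 1 call was also lost with all clusters fitted, without the empirical Bayes step and with only the 2 groups fitted. Phlpp1 rose by 0.55 ± 0.09 (adjusted p = 0.00273) with Torin 1, 1.47-fold, and by 0.79 ± 0.09 (adjusted p = 7e-05) with PP242, 1.73-fold. Trib3, with 0.26 and 0.39, and Inpp5d, with -0.27 and -0.15, did not pass the threshold. Trib3 with PP242 passed without Torin 1 array 2 (adjusted p = 0.0372), and Inpp5d with Torin 1 passed with trend and robust settings (0.0421).

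Of the effectors, Eif4ebp1 fell by 0.45 ± 0.12 (adjusted p = 0.0325) with Torin 1, lost without any 1 DMSO array or Torin 1 array 1 or 2 (adjusted p from 0.0185 to 0.121 over the alternatives). This call was also lost with all clusters fitted, without the empirical Bayes step and with only the 2 groups fitted. With PP242 it fell by 0.48 ± 0.12 (adjusted p = 0.0123), 1.39-fold. Sgk1 fell by 0.49 ± 0.14 (adjusted p = 0.0309) with PP242, lost without DMSO array 1 or 3 or PP242 array 2 (adjusted p from 0.0163 to 0.134 over the alternatives), and changed by -0.21 ± 0.14 (adjusted p = 0.461) with Torin 1. Maf1 rose by 0.44 ± 0.11 (adjusted p = 0.0101) with PP242 and changed by 0.31 ± 0.11 (adjusted p = 0.0945) with Torin 1. The Torin 1 change passed with trend and robust settings (adjusted p = 0.0344). Lpin1, Eif4ebp2 and Rps6kb2 were not called. Of the energy sensing kinases, Prkaa1 changed by 0.08 ± 0.13 (adjusted p = 0.802) with Torin 1 and 0.38 ± 0.13 (adjusted p = 0.0586) with PP242, and Stk11 by 0.27 and 0.08, with neither called. Prkaa1 with PP242 passed without DMSO array 2 (adjusted p = 0.0481) or Torin 1 array 2 (0.0445). It also passed with dim genes removed (0.039) and with trend and robust settings (0.021).

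The difference between the inhibitors was tested directly, at doses that differ. None of the 51 members was higher and none lower with PP242 than with Torin 1 by limma, against a background of 0.162% of all genes higher and 0.23% lower. The count was 0 under each of the 22 alternatives too, among them the fit without the empirical Bayes step. At an unadjusted p under 0.05, 9 members differed (17.6%, against 12.1% of all genes). These were Sesn1, Pik3ip1, Phlpp1 and Prkaa1 on the PP242 side and Fnip1, Rragd, Nprl2, Tbc1d7 and Mlst8 on the Torin 1 side, named here after their values were seen. Fnip1 had the lowest adjusted p, 0.141, with a difference of -0.40 and a 95% interval from -0.63 to -0.17. The intervals of the 51 members reached from -0.68 to 0.70, with a median width of 0.51, so the arrays do not show that the compounds act alike on these genes. For Mtor the interval was -0.31 to 0.12.

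**Figure D4:**
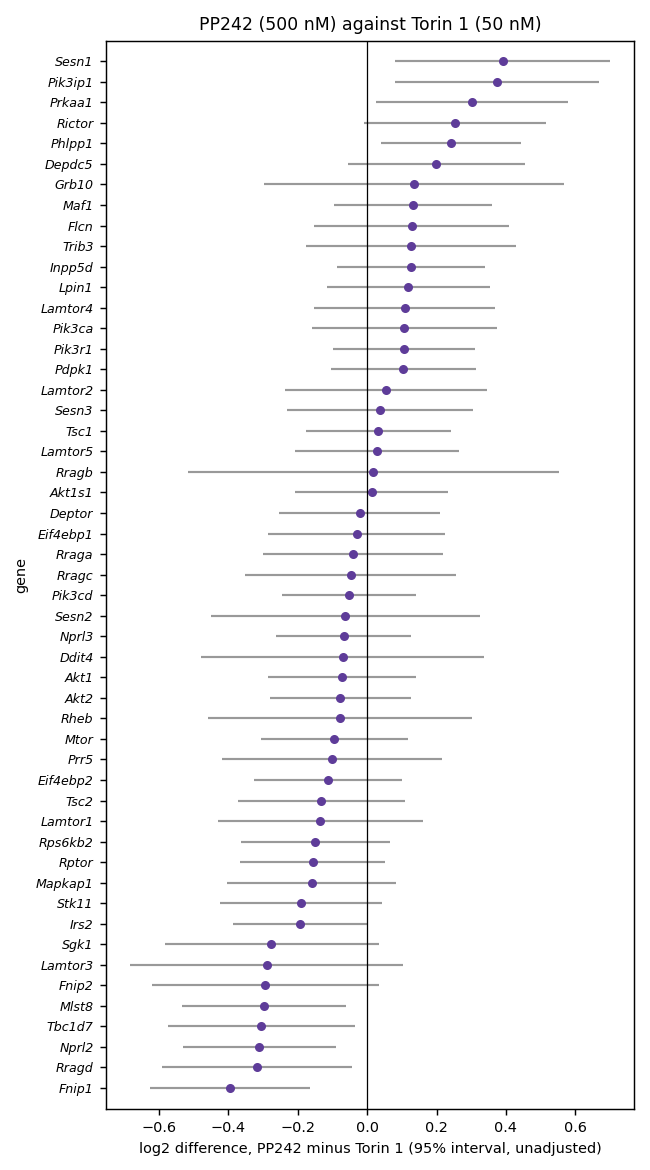
Log2 difference between PP242 (500 nM) and Torin 1 (50 nM) for the 51 members, sorted by size, with the 95% interval of each (not adjusted for the number of genes). Sesn1 and Pik3ip1 have the highest differences and Fnip1 the lowest, and none passed the threshold after adjustment.

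Set against unstimulated cells, the inhibitor-treated activated cells show which members differed from the resting level. Of those named below as called, Pik3cd, Akt2, Sgk1 and Nprl2 were not called on activation with DMSO. These differences of means leave out the DMSO arrays, which enter only through the shared estimate of the spread, and they share the unstimulated arrays with the first comparison. With Torin 1, 9 members were called (3 higher and 6 lower), against a background of 7.73% of all genes. Tbc1d7 (0.63 ± 0.13, adjusted p = 0.00655), Pik3cd (0.54 ± 0.09, adjusted p = 0.00183) and Akt2 (0.39 ± 0.10, adjusted p = 0.0222) were higher. Sesn2 fell by 0.86 ± 0.18 (adjusted p = 0.00867), Prkaa1 by 0.80 ± 0.13 (adjusted p = 0.00144), Sesn1 by 0.51 ± 0.14 (adjusted p = 0.0481), Phlpp1 by 0.50 ± 0.09 (adjusted p = 0.00444), Pik3r1 by 0.37 ± 0.10 (adjusted p = 0.0283) and Irs2 by 0.33 ± 0.09 (adjusted p = 0.0407). The call of Akt2 was lost without unstimulated array 1 or 3 or Torin 1 array 2 or 3 (adjusted p from 0.00295 to 0.0872 over the alternatives). That of Sesn1 was lost without any 1 unstimulated array, DMSO array 1, any 1 Torin 1 array or PP242 array 1 (adjusted p from 0.023 to 0.154 over the alternatives). That of Pik3r1 was lost without unstimulated array 2 or 3 or any 1 Torin 1 array (adjusted p from 0.00316 to 0.121 over the alternatives), and that of Irs2 without any 1 unstimulated array, Torin 1 array 2 or 3 or PP242 array 1 or 2 (adjusted p from 0.00942 to 0.132 over the alternatives). Lpin1 (-0.36 ± 0.11, adjusted p = 0.0617) was not called and passed without DMSO array 1 (adjusted p = 0.0444) or Torin 1 array 1 (0.0443). The count of 9 fell to 5 without unstimulated array 3 or Torin 1 array 2 or 3. Centring each array on its median gave 3 higher and 3 lower, beside 5.13% and 2.13% of all genes.

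With PP242, 6 members were called against unstimulated cells (1 higher and 5 lower), against a background of 3.07% of all genes. Pik3cd rose by 0.49 ± 0.09 (adjusted p = 0.00802). Sesn2 fell by 0.93 ± 0.18 (adjusted p = 0.0119), Rragd by 0.72 ± 0.13 (adjusted p = 0.00642), Sgk1 by 0.69 ± 0.14 (adjusted p = 0.0178), Irs2 by 0.52 ± 0.09 (adjusted p = 0.00545) and Nprl2 by 0.42 ± 0.10 (adjusted p = 0.0412). Sesn2 and Sgk1 each lost the call without unstimulated array 3 or PP242 array 2 (adjusted p from 0.00201 to 0.074 over the alternatives for Sesn2 and adjusted p from 0.0116 to 0.0846 over the alternatives for Sgk1). Nprl2 lost it without any 1 of the 12 arrays other than Torin 1 arrays 2 and 3 (adjusted p from 0.0069 to 0.153 over the alternatives). The count of 6 fell to 3 without unstimulated array 3 or PP242 array 2. Tbc1d7 (0.33 ± 0.13, adjusted p = 0.243), Phlpp1 (-0.26 ± 0.09, adjusted p = 0.215) and Prkaa1 (-0.50 ± 0.13, adjusted p = 0.0546) did not pass the threshold here, although Prkaa1 passed without DMSO array 3 (adjusted p = 0.0422) or Torin 1 array 2 (0.0433).

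A further 71 genes of the pathway that are not in the list of members were examined in the same way, and 64 of them were measured. On activation 7 were higher and 20 lower (10.9% and 31.2%, against 11.8% and 12.1% of all genes). The largest falls were those of Pik3r5, a regulatory subunit of PI3K gamma, by 1.02 ± 0.10 (adjusted p = 5.88e-06), of the autophagy kinase gene Ulk2, by 0.87 ± 0.11 (adjusted p = 4.12e-05), and of its partner Rb1cc1, by 0.82 ± 0.11 (adjusted p = 9.64e-05). The largest rises were those of the cap-binding translation factor Eif4e (0.58 ± 0.12, adjusted p = 0.00255), of Sec13 (0.57 ± 0.10, adjusted p = 0.000841), a subunit of GATOR2 and of the COPII coat, and of Itfg2 (0.50 ± 0.13, adjusted p = 0.0128), a subunit of the KICSTOR scaffold.

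With Torin 1, 11 of these 64 genes were higher than with DMSO and 1 was lower (17.2% and 1.56%, against 3.33% and 4.79% of all genes). Slc38a9, a lysosomal arginine sensor, rose by 0.76 ± 0.13 (adjusted p = 0.00247), Rb1cc1 by 0.67 ± 0.11 (adjusted p = 0.0025) and the receptor gene Igf1r by 0.58 ± 0.10 (adjusted p = 0.00395), while Sec13 fell by 0.43 ± 0.10 (adjusted p = 0.0178). With PP242, 15 were higher and 6 lower (23.4% and 9.38%, against 7.38% and 9.27% of all genes). Slc38a9 rose by 0.98 ± 0.13 (adjusted p = 0.000139), Rb1cc1 by 0.80 ± 0.11 (adjusted p = 0.00024) and Ulk2 by 0.80 ± 0.11 (adjusted p = 0.000182). Sec13 fell by 0.70 ± 0.10 (adjusted p = 0.000293), Eif4e by 0.50 ± 0.12 (adjusted p = 0.0102) and Tti1, a chaperone subunit for mTOR and related kinases, by 0.44 ± 0.12 (adjusted p = 0.0189). None was called between the inhibitors. Against unstimulated cells, Pik3r5 was still lower and Eif4b, a translation initiation factor, higher with Torin 1 (-0.70 and 0.42), and the arginine sensor family gene Castor2 was lower with PP242 (-0.58).

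**Figure D5:**
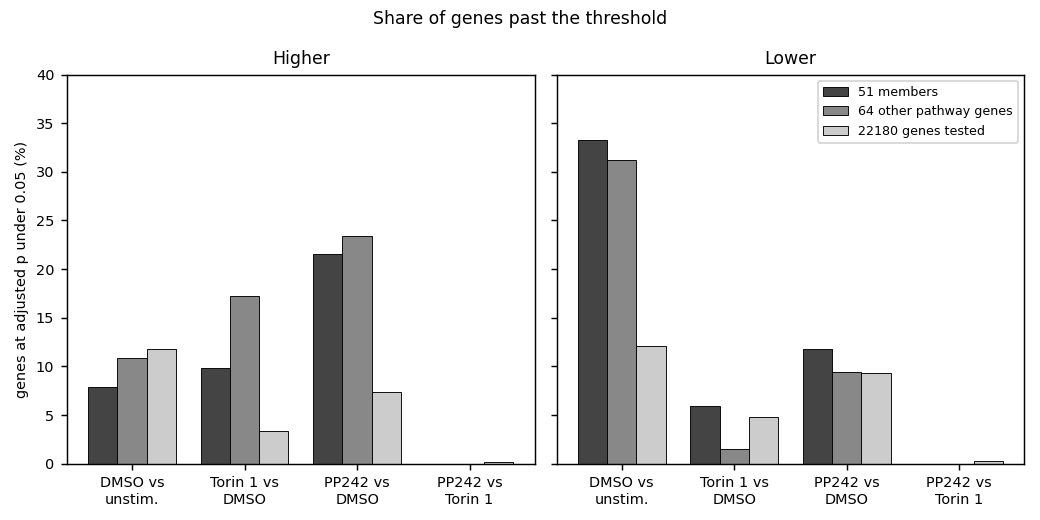
Percentage of genes higher (left) or lower (right) at an adjusted p under 0.05 in each comparison, for the 51 members, the 64 other pathway genes and the 22180 genes tested, with bars starting at 0. Members were lower on activation in 33.3% of cases against 12.1% of all genes, and higher with PP242 in 21.6% against 7.38%. Of the 22180 genes, 14434 reached the dim level in some group, against 50 of the 51 members.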

How the data were processed

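Total RNA of 12 cTreg cell samples, described by the submitters as biological triplicates of 4 groups, was amplified by the authors with the WT Pico protocol and hybridised to GeneChip Mouse Gene 2.0 ST arrays. The deposited values are on the log2 scale and were made by the authors with RMA, which corrects background, equalises quantiles across arrays and summarises probes into clusters, and the submitters' notes name Partek 6.6. The genome build behind the clusters is not given in the sources used here. Groups, replicate numbers and times were taken from the sample labels, and the doses are those of the paper's methods.

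Of 41345 clusters, 23521 carried 1 gene symbol, 1820 several and 16004 none, and the first were used, with the highest mean kept for each of 1082 genes with more than 1. No filter on dim genes was applied. All 12 arrays were fitted together with limma 3.58.1 in R 4.3.3 (lmFit and eBayes on 4 group means, no replicate block), with Benjamini-Hochberg adjustment of p over 22180 genes. The paper's methods name an ANOVA, for which the fit without the empirical Bayes step stood in as an alternative. The values were made jointly, so normalization could shift small changes, and with 3 arrays a group the number of arrays limits the precision. No pair of arrays held identical values. Whether replicate numbers pair the samples was checked by the correlation of deviations from the group means.

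The members, the other gene lists, the marker lists and the motifs were chosen with earlier results of these data known. Values on each array were given for members among the 4 largest called rises and falls of the activation and inhibitor comparisons whose groups did not overlap, for Mtor, Rptor, Rictor, Tsc1 and Tsc2, and, after their values were seen, for Sesn2 and Pik3cd, with ranges for other called members. Those of Rragd were given too, outside this rule. Of the other pathway genes, up to 3 called rises and 3 falls per comparison were named. Promoter windows came from RefSeq (GRCm38.p6) by gene symbol, and motif matches were counted in Python 3.11.15 on both strands. The fit was tested on simulated data. The alternatives were quantile normalization, centring on array medians, removal of dim genes (leaving 14434), the median of a gene's clusters, a fit of all clusters, trend and robust settings, array weights, a fit of 2 groups at a time, the fit without the empirical Bayes step, the replicate block, each array left out in turn, and a threshold of 0.01.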

Additional observations from a re-analysis of the deposited data

How the results depend on the processing

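Of 61 calls of a member in a comparison, 36 passed an adjusted p of 0.05 in all 22 alternatives at that threshold, 25 were lost in some, and none reversed. All but 1 of these 25 were lost on leaving out at least 1 array. The exception was Sesn2 with Torin 1 against unstimulated cells, lost without the empirical Bayes step at an adjusted p of 0.0521. Quantile normalization ended 6 calls and centring on array medians 13, the fit of all clusters 15, the fit without the empirical Bayes step 14 and the fit of 2 groups 18, while trend and robust settings added 12. The cause of these losses was not tested, apart from the smaller number of samples or larger number of features that some settings have by construction.

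Members higher with Torin 1 than with DMSO numbered 5, and 3 when all clusters were fitted or with 2 groups only, and 8 with trend and robust settings. Members higher with PP242 numbered 11, and 7 with centred arrays or with 2 groups only. At an adjusted p under 0.01, 11 members were lower on activation (17 at 0.05), 2 higher with Torin 1, 5 higher and 2 lower with PP242, and against unstimulated cells 5 were called with Torin 1 and 3 with PP242. When single arrays were left out, the members higher on activation ranged from 3 to 4 and those lower from 12 to 17, those higher with Torin 1 from 2 to 5 and lower from 2 to 4, and those higher with PP242 from 7 to 12 and lower from 3 to 7. The calls against unstimulated cells ranged from 5 to 9 with Torin 1 and from 3 to 7 with PP242, and between the inhibitors the count stayed at 0. Shares of all genes were taken only for the main fit, quantile normalization and centred arrays. The counts under other settings and at 0.01 therefore show how the member calls vary, and not how members compare with all genes.

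The labels link samples of different groups by the replicate number alone, and whether those samples shared a sort or mice is not given. Deviations from the group means correlated at -0.072 to 0.059 between samples of the same number, against -0.078 to 0.111 for other pairs. With 3 arrays a group, these correlations do not settle whether the samples were paired. With the replicate number as a block, 4 members were higher and 16 lower on activation, 5 higher and 3 lower with Torin 1, and 8 higher and 6 lower with PP242, and 7 and 5 were called against unstimulated cells. In all 8 calls were lost and 1 was gained. The share of all genes was not taken with this block.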
